A study of Homo sapiens with 12 samples.

Results

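Neurofilaments and neuronal microtubule proteins build the internal skeleton of nerve cells, and their transcripts were followed here in TC-71 cells, an established human line of Ewing sarcoma, a tumour driven by the fusion protein EWS-FLI1. The group is 10 genes taken by symbol from the deposited table, namely the filament genes NEFL, NEFM, NEFH, INA and NES and the microtubule genes MAP1B, MAP1A, MAP2, MAPT and STMN3. They fill 11 of the table's 78885 entries, since MAP1B has 2, and 9 of the 10 genes passed the filter that kept 14225 named entries with a mean of at least 10. The genes were chosen by family and symbol with no threshold on a value, but with results of these libraries known, among them the siDHX9 and scrambled levels of NEFM and NEFL. The calls below therefore describe these genes and are not independent evidence.

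TC-71 cells received YK-4-279, a small molecule made to keep EWS-FLI1 from binding the RNA helicase DHX9, at a dose labelled 2 mM, a unit that may be a misprint and could not be checked here, for 16 hours, or its solvent DMSO for the same time. Other TC-71 cells were transfected against DHX9 (siDHX9) or with a scrambled control by lipofection in a double pulse and collected at 48 hours. Each of the 4 groups has 3 libraries, which per the labels' protocols are biological replicates, all of 1 cell line. The protocols speak of siRNAs and the series' design text of shRNAs.

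Neurofilaments are heteropolymers: the light chain NEFL forms the core, the medium and heavy chains NEFM and NEFH carry long side arms that set axon calibre, and alpha-internexin, encoded by INA, co-assembles with them in central neurons. Nestin (NES) is the intermediate filament protein of neural progenitors. MAP1B, MAP1A, MAP2 and tau (MAPT) bind along microtubules, with MAP1B prominent in growing axons, MAP2 in dendrites and tau in axons. Stathmin 3 (STMN3) belongs to a family of phosphoproteins that bind free tubulin and destabilise microtubules.

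Library totals, in units of 1000000 reads, lay between 48.3 and 53.7 with YK-4-279, 38.6 and 65.5 in DMSO, 46.9 and 49.4 in siDHX9, and 47.8 and 51 in scrambled libraries. The joint entry of DHX9 and its neighbour NPL was 36.9% lower after knockdown, at 20608 ± 1100 in siDHX9 libraries and 32689 ± 2130 in scrambled ones (normalised counts, mean ± SD, n = 3; limma adjusted p = 4.54e-05). All 9 Ewing sarcoma markers examined were measured, with CD99 at 26194 and NR0B1 at 6914 normalised counts in DMSO. Of 12 markers of other cell types 7 stayed under the filter, among them the neuronal RBFOX3 and the glial GFAP, each at a group mean of at most 1.39. The siDHX9 replicates 2 and 3 were the least alike of any pair within a group (Pearson r = 0.9797 across genes), and CHAC1, a stress response gene, stood at 5052 and 8311 in scrambled replicates 1 and 2 against 720.2 in replicate 3. In the other groups CHAC1 lay below every scrambled library. It stood at 158.2 to 565.9 in siDHX9, 131.3 to 358.2 in DMSO and 188.1 to 378 with YK-4-279.

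Promoters from RefSeq (GRCh38.p14, 250 bases before to 50 after the start, 5′ to 3′ on the gene's strand) are shown for members called between siDHX9 and scrambled libraries. INA, NES and STMN3 were called higher in siDHX9 than in scrambled libraries, and MAP1B lower. The NES and STMN3 calls were each lost in 6 of 22 alternatives, and neither gene was called in siDHX9 against DMSO. Scrambled libraries were themselves called lower than DMSO for INA and STMN3, and higher for MAP1B. INA lies at chr10:103276888-103277187 (plus strand), NES at chr1:156677358-156677657 (minus strand), STMN3 at chr20:63652717-63653016 (minus strand) and the first of the 2 listed MAP1B starts at chr5:72107225-72107524 (plus strand). Capitals mark matches on either strand to the GC box GGGCGG, the TATA box TATAAA, the repeat GGAAGGAA of the core bound by FLI1, and CAGCACC and GGACAG, which lie in the left and right parts of the element bound by the neuronal repressor REST.
INA: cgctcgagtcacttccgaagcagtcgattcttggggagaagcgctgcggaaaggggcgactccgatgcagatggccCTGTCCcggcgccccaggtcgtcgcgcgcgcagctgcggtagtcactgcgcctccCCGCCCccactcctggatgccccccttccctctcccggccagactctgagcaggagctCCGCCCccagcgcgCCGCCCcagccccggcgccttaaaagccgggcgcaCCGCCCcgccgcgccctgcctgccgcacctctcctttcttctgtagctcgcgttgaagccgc
NES: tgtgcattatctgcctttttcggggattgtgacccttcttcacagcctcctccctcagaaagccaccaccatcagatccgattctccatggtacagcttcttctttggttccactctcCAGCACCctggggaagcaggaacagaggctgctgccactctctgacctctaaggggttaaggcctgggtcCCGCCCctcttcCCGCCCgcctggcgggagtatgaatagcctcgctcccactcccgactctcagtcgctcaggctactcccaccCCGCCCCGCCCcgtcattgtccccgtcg
STMN3: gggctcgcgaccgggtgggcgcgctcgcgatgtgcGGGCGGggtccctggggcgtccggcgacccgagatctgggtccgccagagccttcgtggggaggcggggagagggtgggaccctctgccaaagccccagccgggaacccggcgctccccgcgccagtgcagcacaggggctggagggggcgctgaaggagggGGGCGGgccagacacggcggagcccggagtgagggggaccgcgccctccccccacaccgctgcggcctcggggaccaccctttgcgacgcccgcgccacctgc
MAP1B: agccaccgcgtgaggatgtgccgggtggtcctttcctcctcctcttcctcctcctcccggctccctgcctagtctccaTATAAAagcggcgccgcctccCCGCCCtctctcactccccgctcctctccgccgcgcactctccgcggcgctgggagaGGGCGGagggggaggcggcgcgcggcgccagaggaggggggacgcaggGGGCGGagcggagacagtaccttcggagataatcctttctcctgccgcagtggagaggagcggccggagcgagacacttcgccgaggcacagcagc
The INA window holds 4 GC boxes and 1 GGACAG, NES holds 4 GC boxes and 1 CAGCACC, STMN3 holds 2 GC boxes, and MAP1B holds 3 GC boxes and 1 TATAAA. Neighbouring capitals can belong to overlapping matches. Of the 35116 promoters in the table, 45% hold GGGCGG, 20.5% GGACAG, 11.5% TATAAA, 7.75% CAGCACC and 3.67% GGAAGGAA, the last of which is in none of the printed windows. Of the 10 genes 6 have a promoter in that table. NEFL, NEFM, NEFH and MAPT have none there.

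Levels differed widely between the genes. Per kilobase of the longest transcript in GENCODE v29, NEFH stood at 9420 ± 431 and STMN3 at 6466 ± 607 normalised counts in DMSO (SD, n = 3). NEFL (555.8 ± 24.3), INA (535.7 ± 25), MAPT (518.5 ± 7.18) and MAP1B (447.5 ± 16.8) were more than 10 times lower on this per-kilobase scale, NEFM stood at 194.8 ± 19.8, and NES (49.99 ± 5.12) and MAP1A (25.42 ± 2.42) were low. MAP2 was near the limit of detection, with 2 to 10 reads in each of the 12 libraries, at 4.79 ± 1.08 normalised counts with YK-4-279, 4.91 ± 2.21 in DMSO, 5.87 ± 2.97 in siDHX9 and 5.16 ± 4.28 in scrambled libraries, and it was not tested. The second MAP1B entry (GSHG0146059) held 2 reads in scrambled replicate 3 and 0 in the other libraries.

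**Figure D1:**
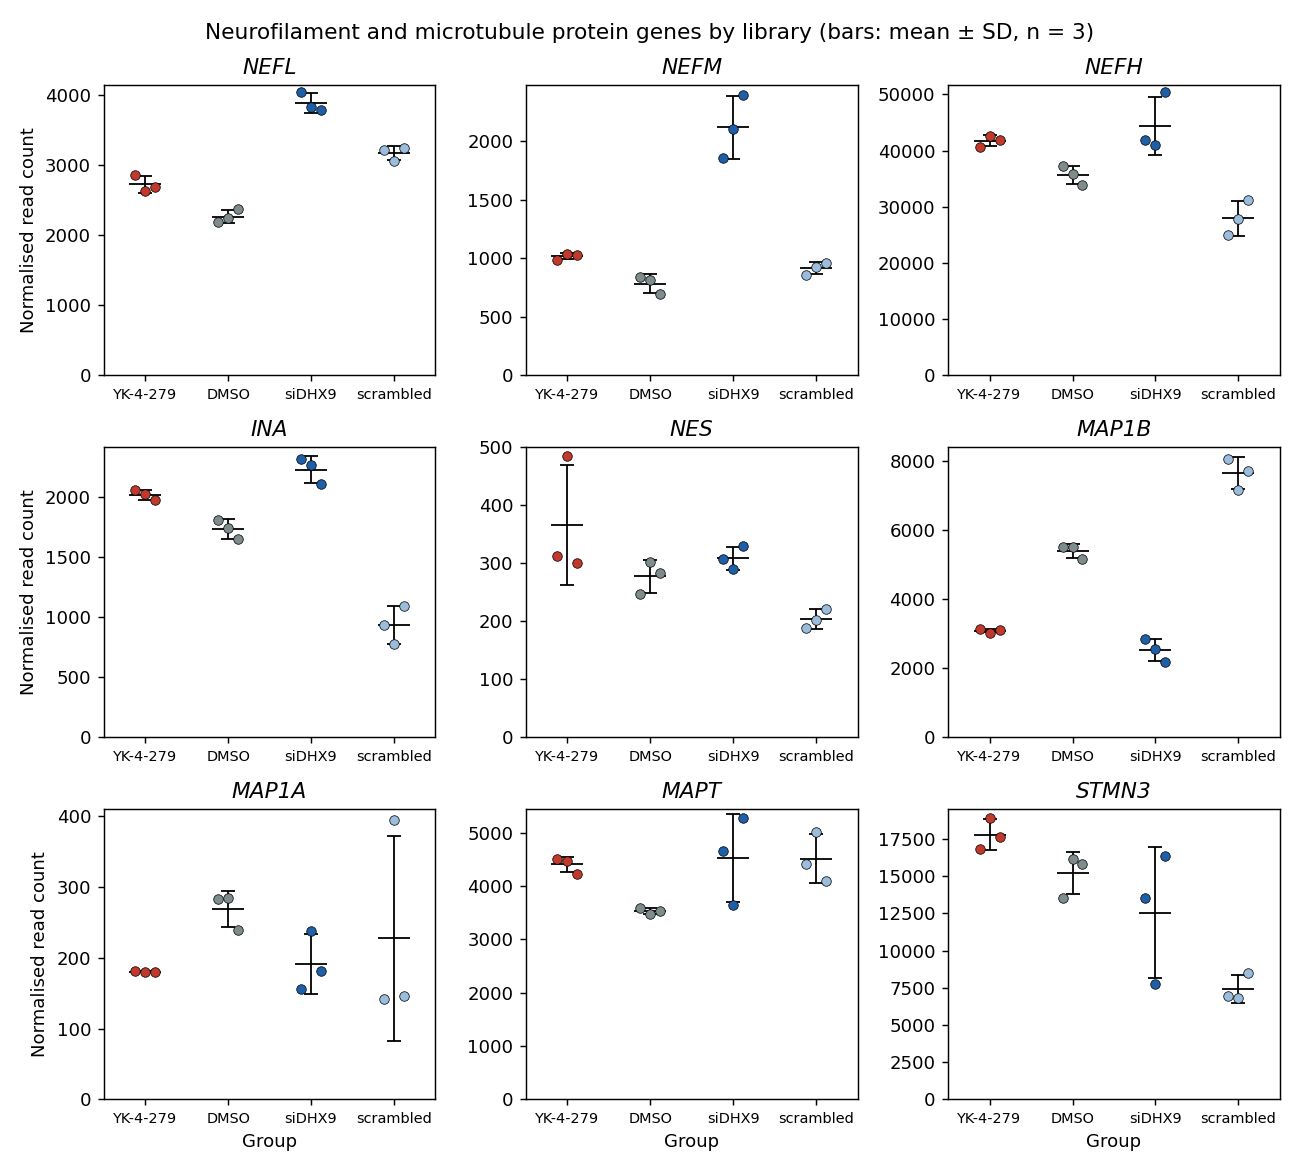
Normalised read count of the 9 measured genes in each of the 12 libraries, by group; points are libraries and bars give the mean ± SD (n = 3). MAP1B is lower with YK-4-279 than in DMSO and lower in siDHX9 than in scrambled libraries, while NEFL, NEFM, NEFH and INA are higher in the same pairs. With YK-4-279 the differences of NEFH and INA were not called (limma adjusted p = 0.111 and 0.188).

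Knockdown of DHX9 was set against its scrambled control to ask which of these genes differ between the groups. In siDHX9 libraries 6 of the 9 measured genes rose and 1 fell, while 2 were not called. Of all 14225 genes 16.7% were called in this comparison, 8.75% higher and 7.97% lower. The libraries of 6 genes did not overlap between the groups, 5 above scrambled and 1 below, where 14.9% of all genes lay above and 14.4% below. All 4 neurofilament subunit genes rose, with INA at 2.4-fold and NEFM at 2.31-fold, and MAP1B fell 3.03-fold. The median log2 change of the 9 genes was 0.60, against 0.00 over all genes tested. Scrambled libraries were themselves 1.87-fold below DMSO for INA and 1.28-fold for NEFH, and 1.42-fold above it for MAP1B and 1.4-fold for NEFL. Against DMSO, siDHX9 libraries were 1.29-fold higher for INA, 1.24-fold for NEFH, 2.7-fold for NEFM and 1.72-fold for NEFL. MAP1B was 2.14-fold lower in siDHX9 than in DMSO. In such bulk libraries a change in the share of cells that carry a transcript and a change in its level per cell cannot be told apart.

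INA (GSHG0003659, hg19 chr10:105036920-105050106) had 2310, 2265 and 2102 normalised counts in siDHX9 libraries, against 937, 773 and 1091 in scrambled libraries. The siDHX9 values are close together and lie far above every scrambled value. The log2 fold change was 1.27 ± 0.11 (SE; limma adjusted p = 9.09e-06).

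NEFM (GSHG0028896, chr8:24771273-24776808) had 1857, 2102 and 2396 in siDHX9 libraries, against 857, 928 and 957 in scrambled libraries. The lowest siDHX9 value exceeds the highest scrambled one by a wide margin, and the log2 fold change was 1.21 ± 0.11 (SE; adjusted p = 1.25e-05). NEFL (GSHG0029474, chr8:24808471-24814383), whose entry starts 31662 bases beyond the end of NEFM, had 4054, 3836 and 3784 in siDHX9 libraries and 3220, 3067 and 3252 in scrambled libraries. The groups do not overlap but the change was small, at 1.22-fold (log2 0.29 ± 0.07 SE; adjusted p = 0.0155), and the adjusted p was 0.061 without siDHX9 replicate 1, 0.118 when only these 6 libraries were fitted and 0.178 without both scrambled libraries 1 and 2.

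NEFH (GSHG0019935, chr22:29866907-29887379), the most abundant filament transcript of the group per kilobase, had 41846, 41073 and 50399 in siDHX9 libraries, against 24980, 27742 and 31165 in scrambled libraries. All siDHX9 values lie above all scrambled values, and the rise was 1.59-fold (log2 0.67 ± 0.09 SE; adjusted p = 0.000461). NES (GSHG0002615, chr1:156638558-156647199) had 307.3, 290 and 329.6 in siDHX9 libraries, against 188.4, 202.5 and 221.5 in scrambled libraries, again with no overlap (log2 0.60 ± 0.17 SE; adjusted p = 0.029). The NES call was lost without any 1 of scrambled replicates 1 and 2 and siDHX9 replicates 1 and 3, with adjusted p values of 0.0676 to 0.0942, and its adjusted p was 0.0599 on these 6 libraries alone and 0.337 without both scrambled libraries 1 and 2.

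MAP1B (GSHG0146058, chr5:71403118-71505396) moved the other way and had the largest change of the 9 genes. It had 2839, 2556 and 2192 in siDHX9 libraries, against 8061, 7146 and 7709 in scrambled libraries. The groups are far apart, with a level 67% lower in siDHX9 (log2 −1.60 ± 0.09 SE; adjusted p = 1.55e-07), and the call held in all 22 alternatives, with log2 changes of −1.69 to −1.50.

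The other microtubule genes gave less even values. STMN3 (GSHG0019334, chr20:62271058-62284963) had 13520, 7725 and 16381 in siDHX9 libraries and 6953, 6788 and 8516 in scrambled libraries. Replicate 2 of siDHX9 lies below scrambled replicate 3, so the groups overlap. The log2 fold change was 0.70 ± 0.20 (SE; adjusted p = 0.0296), or 1.01 without siDHX9 replicate 2, and the call was lost without any 1 of scrambled replicates 1 and 2 and siDHX9 replicates 1 and 3, with adjusted p values of 0.0888 to 0.116. The adjusted p was 0.116 on these 6 libraries alone and 0.419 without both scrambled libraries 1 and 2.

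Tau and MAP1A were not called. MAPT (GSHG0033294, chr17:43971748-44105700) had 4668, 3646 and 5276 in siDHX9 libraries, against 4418, 5019 and 4106 in scrambled libraries, and these ranges overlap fully (log2 −0.01, 95% interval −0.25 to 0.24; adjusted p = 0.975). MAP1A (GSHG0009820, chr15:43809806-43823818) had 155.2, 237.8 and 180.5 in siDHX9 libraries, against 141.6, 393.9 and 146 in scrambled libraries. Scrambled replicate 2 holds far more MAP1A than the other scrambled libraries; the log2 change was −0.10 with all libraries and 0.39 without that one (adjusted p = 0.853 and 0.171).

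Markers of other cell types moved in the same comparison. Of 12 such genes 5 passed the filter, and in siDHX9 libraries 3 of them rose and 0 fell. Of all genes 8.75% were called higher and 7.97% lower. DCN, a matrix gene of fibroblasts, stood at 510.7 ± 118 in siDHX9 and 249.5 ± 61 in scrambled libraries. COL1A1, a collagen gene, stood at 1873 ± 283 in siDHX9 and 1449 ± 172 in scrambled, and the glial S100B at 105.6 ± 7.18 in siDHX9 and 60.9 ± 13.8 in scrambled. For S100B the scrambled libraries were themselves 1.58-fold below DMSO (95.9 ± 12.9 in DMSO, limma adjusted p = 0.0422). Against DMSO, S100B was not called in siDHX9 libraries (adjusted p = 0.69). LUM and EPCAM were not called in this comparison. The neuronal marker RBFOX3 stayed at a group mean of at most 1.39 in all 4 groups. Among the 9 Ewing sarcoma markers 2 rose and 0 fell in siDHX9 against scrambled libraries. These were BCL11B (1.73-fold, limma adjusted p = 4.54e-05) and NR0B1 (1.23-fold, 0.015). The part of these shifts in the values above was not tested.

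**Figure D2:**
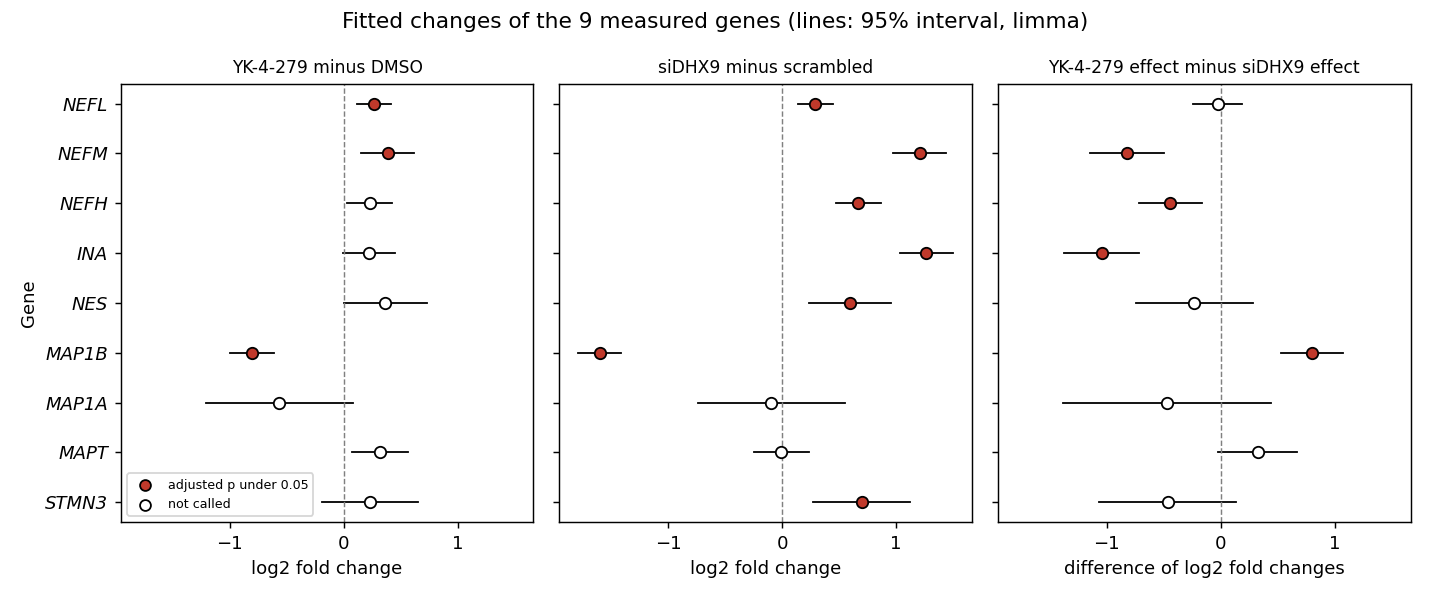
Fitted log2 fold changes of the 9 genes in 3 panels, YK-4-279 against DMSO, siDHX9 against scrambled, and the first effect less the second; lines are 95% intervals and filled points have an adjusted p under 0.05. INA, NEFM and NEFH lie further right, and MAP1B further left, for DHX9 knockdown than for the drug.

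YK-4-279 was set against DMSO to ask what the drug changed within 16 hours. NEFL and NEFM rose and MAP1B fell, and the other 6 genes were not called. Of all genes 13.8% were called, 7.33% higher and 6.49% lower. The median log2 change of the 9 genes was 0.23, against 0.02 over all genes. The libraries of 8 of the 9 genes did not overlap between the groups, 6 above DMSO and 2 below, where 23.2% of all genes lay above and 20.4% below.

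MAP1B had 3131, 3029 and 3091 normalised counts with YK-4-279, against 5490, 5514 and 5153 in DMSO. Within each group the values are nearly level, and the drug-treated ones are 42.7% lower (log2 −0.80 ± 0.09 SE; adjusted p = 0.000104). The call held in all 21 alternatives.

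NEFM had 986, 1041 and 1033 with YK-4-279, against 841, 816 and 692 in DMSO, a rise of 1.31-fold (log2 0.39 ± 0.11 SE; adjusted p = 0.0302). NEFL had 2859, 2633 and 2693 with YK-4-279, against 2184, 2244 and 2378 in DMSO, a rise of 1.2-fold (log2 0.27 ± 0.07 SE; adjusted p = 0.0254). Neither pair of groups overlaps. Both calls are fragile. That of NEFM was lost without any 1 of DMSO replicates 2 and 3 and the YK-4-279 libraries (adjusted p of 0.0642 to 0.123), and that of NEFL without any 1 of DMSO replicates 1 and 2 and the YK-4-279 libraries (0.0587 to 0.111).

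The remaining filament genes were not called. NEFH had 40648, 42587 and 41892 with YK-4-279, against 37212, 35743 and 33954 in DMSO (log2 0.23 ± 0.09 SE; adjusted p = 0.111). INA had 2054, 2023 and 1973 with YK-4-279, against 1808, 1737 and 1647 in DMSO (log2 0.22 ± 0.11 SE; adjusted p = 0.188). For both genes every drug-treated library lies above every DMSO library, with differences of 1.17-fold, and both were called when only these 6 libraries were fitted (adjusted p = 0.00242 for NEFH and 0.0174 for INA). NEFH was also called without siDHX9 replicate 3 (0.0414). NES had 312.4, 485.6 and 300.2 with YK-4-279, against 247, 302.9 and 283.8 in DMSO (log2 0.37 ± 0.17 SE; adjusted p = 0.164), with replicate 2 of the drug alone far above the rest.

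Among the microtubule genes, MAPT had 4515, 4467 and 4237 with YK-4-279, against 3583, 3486 and 3532 in DMSO, without overlap (log2 0.32 ± 0.11 SE; adjusted p = 0.0784). STMN3 had 16864, 18898 and 17636 with YK-4-279, against 13564, 16186 and 15852 in DMSO (log2 0.23 ± 0.20 SE; adjusted p = 0.467). MAP1A had 181.6, 180 and 179.3 with YK-4-279, against 282, 284 and 238.8 in DMSO, below DMSO in every library (log2 −0.57 ± 0.30 SE; adjusted p = 0.227). The spread behind these tests is shared by all 12 libraries, including the uneven siDHX9 and scrambled values of STMN3, MAPT and MAP1A. When only the 6 libraries of the drug comparison were fitted, 8 of the 9 genes were called, 6 higher and 2 lower, with adjusted p values of 0.000667 for MAPT, 0.00545 for MAP1A and 0.0202 for STMN3, while NES was not called (0.126). That fit also called more of the 14225 genes, 4270 (2325 higher and 1945 lower), against 1965 in the reported fit. MAP1A was also called without scrambled replicate 2 (0.0294), and MAPT without siDHX9 replicate 2 (0.0125) or 3 (0.0319).

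The difference between the drug effect and the knockdown effect was tested directly, and 4 of the 9 genes were called, 1 higher and 3 lower, beside 9.69% of all genes, 4.4% higher and 5.29% lower. Each against its own control, the effect of the drug was smaller than that of knockdown for INA (difference of log2 changes −1.04 ± 0.15 SE; adjusted p = 0.00126) and NEFM (−0.82 ± 0.15 SE; adjusted p = 0.0051). For MAP1B the drug's fall was the smaller one (0.80 ± 0.13 SE; adjusted p = 0.00204). NEFH passed narrowly (−0.44 ± 0.13 SE; adjusted p = 0.0456), and its adjusted p was 0.0512 to 0.107 when any library other than siDHX9 replicate 2 or scrambled replicate 3 was left out, 0.0755 with no minimum and 0.0514 with the replicate block. For NEFL the 95% interval of the difference was −0.24 to 0.19. The difference was called for STMN3 only without siDHX9 replicate 2 (−0.78; adjusted p = 0.00467) and for MAP1A only without scrambled replicate 2 (−0.95; adjusted p = 0.0282). Treatment time, transfection and agent all differ between these comparisons and cannot be told apart here. The scrambled level enters each of these differences. Against DMSO, scrambled libraries stood at log2 −0.90 for INA, −0.35 for NEFH, 0.23 for NEFM and 0.50 for MAP1B. Also against DMSO, INA changed by 0.22 with YK-4-279 and 0.36 in siDHX9, and NEFH by 0.23 and 0.31. The same values were 0.39 and 1.43 for NEFM, and −0.80 and −1.10 for MAP1B.

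The scrambled libraries themselves differed from DMSO at several of these genes. Comparisons with DMSO share its 3 libraries, and transfection and collection time cannot be told apart in them. Scrambled against DMSO, 6 of the 9 genes were called, 3 higher and 3 lower, beside 18.9% of all genes, 9.7% higher and 9.22% lower. Of the 9 genes 4 lay above DMSO without overlap and 4 below, against 22% and 18.8% of all genes. STMN3 fell 2.05-fold to 7419 ± 954 in scrambled libraries, against 15201 ± 1428 in DMSO (adjusted p = 0.00333). INA fell 1.87-fold to 934 ± 159 in scrambled libraries, against 1731 ± 80.7 in DMSO (adjusted p = 0.000176), and NEFH fell 1.28-fold (adjusted p = 0.016). MAP1B rose 1.42-fold to 7639 ± 461 in scrambled libraries, against 5386 ± 202 in DMSO (adjusted p = 0.00225), NEFL rose 1.4-fold (adjusted p = 0.000624) and MAPT rose 1.27-fold (adjusted p = 0.0464). The MAPT call was lost in 11 of 21 alternatives and the NEFH call in 3, without scrambled replicate 1 (adjusted p = 0.0766) and without DMSO replicate 1 (0.0608) or 2 (0.0559).

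With siDHX9 set against DMSO instead, 4 of the 9 genes rose and 1 fell in limma, and 5 rose and 1 fell in edgeR and in DESeq2, beside 15.6% of all genes called in limma, 8.3% higher and 7.33% lower. Alternatives other than leaving 1 library out, edgeR and DESeq2 among them, called 1557 to 2814 of all genes, against 2223 in the reported fit. Of the 9 genes 5 lay above DMSO without overlap and 2 below, against 18.3% and 16.5% of all genes. NEFM rose 2.7-fold to 2118 ± 270 in siDHX9 libraries, against 783.1 ± 79.7 in DMSO (adjusted p = 2.77e-06), and NEFL rose 1.72-fold to 3891 ± 144 in siDHX9 libraries, against 2269 ± 99.1 in DMSO (adjusted p = 1.7e-05). MAP1B fell 2.14-fold to 2529 ± 324 in siDHX9 libraries, against 5386 ± 202 in DMSO (adjusted p = 6.62e-06). INA and NEFH rose only 1.29-fold and 1.24-fold (adjusted p = 0.0359 and 0.0325), calls that were lost in 8 and 7 of 21 alternatives. NES and STMN3 were not called, with STMN3 at 12542 ± 4410 in siDHX9 and 15201 ± 1428 in DMSO (log2 −0.34 ± 0.20 SE). MAPT was 1.27-fold higher without overlap and not called by limma (adjusted p = 0.0567), but was called by edgeR (0.0498), by DESeq2 (0.0336) and by limma without siDHX9 replicate 2 (0.00171) or scrambled replicate 2 (0.045). The NEFH call was among those lost without siDHX9 replicate 3 (0.0974). Of the markers of other cell types, DCN was 1.83-fold higher in siDHX9 than in DMSO (adjusted p = 0.0127), LUM 1.87-fold (0.031) and COL1A1 1.41-fold (0.0103). S100B (adjusted p = 0.69) and EPCAM (0.778) were not called. Among the 9 Ewing sarcoma markers 2 rose and 1 fell. The part of these marker shifts in the values of this comparison was not tested.

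The order of the 4 group means differed between these genes, and the share of all genes with groups set apart in this way was not computed. NEFM was highest in siDHX9 (2118), followed by YK-4-279 (1020), scrambled (914) and DMSO (783), with no overlap between neighbours in that order. NEFL ran from siDHX9 (3891) through scrambled (3180) and YK-4-279 (2728) to DMSO (2269), again with no overlap. INA ran from siDHX9 (2226) through YK-4-279 (2016) and DMSO (1731) to scrambled (934), with no overlap, and NEFH had the same order with overlap between siDHX9 and YK-4-279 alone. MAP1B was highest in scrambled (7639), followed by DMSO (5386), YK-4-279 (3084) and siDHX9 (2529), the reverse of the INA order and without overlap. For MAP1A all neighbours overlapped, and for MAPT only DMSO stood apart, below the rest. NES ran from YK-4-279 (366) through siDHX9 (309) and DMSO (278) to scrambled (204), and only scrambled stood apart from its neighbour. STMN3 ran from YK-4-279 (17800) through DMSO (15200) and siDHX9 (12540) to scrambled (7419), where siDHX9 overlapped both neighbours.

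**Figure D3:**
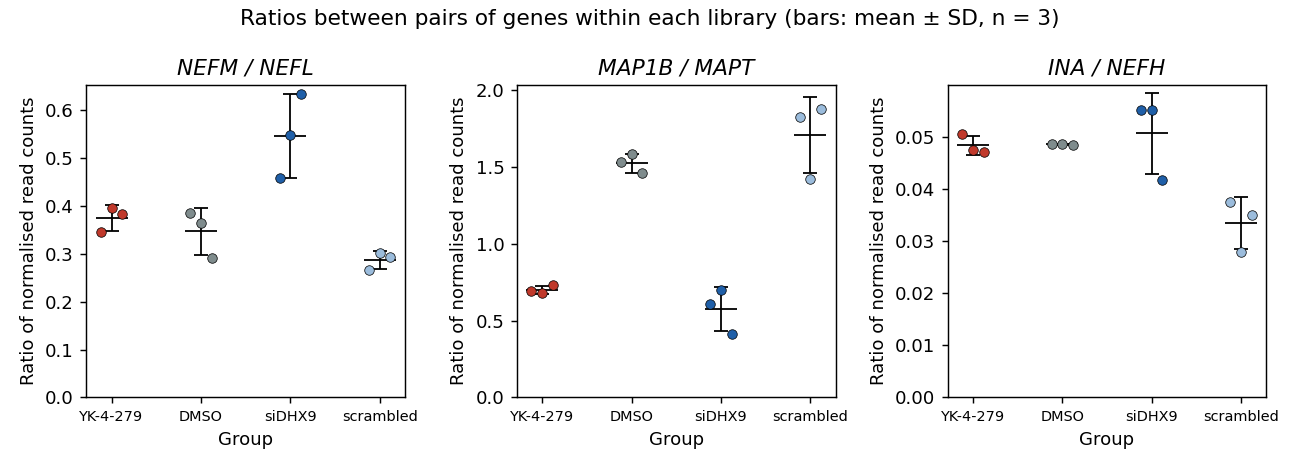
Ratio of normalised read counts between pairs of genes within each library, by group; bars give the mean ± SD (n = 3). MAP1B to MAPT is below 0.73 in every YK-4-279 and siDHX9 library and above 1.42 in every DMSO and scrambled library.

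Ratios within a library cancel its scaling factor and show unequal change only. MAP1B to MAPT was 0.700 ± 0.026 with YK-4-279, against 1.52 ± 0.06 in DMSO, and 0.575 ± 0.146 in siDHX9, against 1.71 ± 0.25 in scrambled libraries (SD, n = 3). NEFM to NEFL was 0.374 ± 0.026 with YK-4-279 and 0.347 ± 0.049 in DMSO, with overlapping libraries, but 0.546 ± 0.088 in siDHX9 and 0.287 ± 0.019 in scrambled libraries, which do not overlap. INA to NEFH was 0.0507 ± 0.0078 in siDHX9 and 0.0335 ± 0.005 in scrambled libraries, without overlap, and in DMSO it lay at 0.0485 to 0.0486 in all 3 libraries.

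Among the reads per kilobase of the 4 subunit genes, NEFH took 87.7% ± 0.46 with YK-4-279 and 88% ± 0.322 in DMSO, and 84.3% ± 1.44 in siDHX9 and 85% ± 1.2 in scrambled libraries. NEFM took 3.78% ± 0.268 in siDHX9 and 2.62% ± 0.128 in scrambled libraries, and 2.02% ± 0.025 with YK-4-279 and 1.82% ± 0.117 in DMSO.

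Related cytoskeletal genes were read from lists of the same families, whose calls were not refitted with libraries left out. Of 10 measured intermediate filament genes outside the group, 1 rose and 1 fell in siDHX9 libraries. Of all genes 16.7% were called in that comparison, 8.75% higher and 7.97% lower. The gene that fell was PRPH, which encodes peripherin, a filament protein of peripheral neurons that co-assembles with neurofilaments. It had 2397 ± 305 in siDHX9 and 4562 ± 286 in scrambled libraries (1.91-fold lower; adjusted p = 4.51e-05), and 6579 ± 377 with YK-4-279 and 5318 ± 366 in DMSO (1.24-fold higher; adjusted p = 0.047). The effects of drug and knockdown on PRPH differed by 1.24 ± 0.14 on the log2 scale (adjusted p = 0.000178). BFSP1, a lens filament gene, rose 1.46-fold (adjusted p = 0.0244). For BFSP1 the scrambled libraries were themselves 1.38-fold below DMSO (limma adjusted p = 0.0434), and siDHX9 against DMSO was not called (0.735).

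With YK-4-279, 4 of these 10 filament genes rose and 1 fell, beside 13.8% of all genes called, 7.33% higher and 6.49% lower. The nuclear lamina genes LMNA and LMNB2 rose 1.48-fold and 1.35-fold (adjusted p = 0.00839 and 0.0055), the keratin gene KRT18 rose 1.43-fold (adjusted p = 0.0175), and SYNM, which encodes synemin, a partner of other intermediate filaments, fell 1.72-fold (adjusted p = 0.000839). VIM, which encodes vimentin and was picked after its values were seen as the most abundant gene of this list, stood at 83309 ± 3260 with YK-4-279 and 72057 ± 1280 in DMSO (adjusted p = 0.068).

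Of 13 measured microtubule-associated genes outside the group, 2 rose with YK-4-279, namely MAP1S, a relative of MAP1A and MAP1B (1.65-fold; adjusted p = 0.0103), and MAP7D1 (1.58-fold; adjusted p = 0.016). With the drug 13.8% of all genes were called, 7.33% higher and 6.49% lower. In siDHX9 libraries, where limma called 16.7% of all genes, 0 of the 13 were called by limma, 0 by edgeR and 0 by DESeq2. Of the 13, 3 had an unadjusted limma p under 0.05. The median log2 change of the 13 in siDHX9 against scrambled libraries was −0.14. Of the stathmin genes outside the group 2 were measured and not called, with STMN1 at 74618 in siDHX9 and 77051 in scrambled libraries and STMN4 at 6370 in siDHX9 and 7203 in scrambled libraries.

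Of 4 measured collapsin response mediators, which bind tubulin in growing axons, CRMP1 rose 1.34-fold with YK-4-279 (adjusted p = 0.0136) and 1.35-fold in siDHX9 libraries (adjusted p = 0.0121). Of 12 kinases and partners of tau and the filaments, 3 rose and 2 fell in siDHX9 libraries, beside 8.75% and 7.97% of all genes. CDK5R2, an activator of the tau kinase CDK5, rose to 13.4 ± 1.47 in siDHX9, against 4.37 ± 0.915 in scrambled libraries, at very low counts (adjusted p = 0.0173). Scrambled libraries were themselves 4.22-fold below DMSO for CDK5R2 (21.8 ± 4.62 in DMSO; adjusted p = 0.00183), and siDHX9 against DMSO was not called (log2 −0.64 ± 0.36 SE; adjusted p = 0.247). The kinesin motor gene KIF5C rose 2.09-fold and KIF5B fell 1.99-fold (adjusted p = 0.0495 and 0.0262). KIF5C stood at 53.4 ± 23.2 in siDHX9 and 23.8 ± 3.36 in scrambled libraries, and KIF5B at 170.3 ± 56.1 and 346.3 ± 144. For KIF5C the scrambled libraries were themselves 2.16-fold above DMSO (limma adjusted p = 0.0379), and siDHX9 libraries 4.5-fold above it (0.00101). KIF5B was not called against DMSO in scrambled (0.183) or siDHX9 libraries (0.277). MARK4 fell 1.35-fold to 646.3 ± 52.7 in siDHX9, against 879 ± 151 in scrambled libraries (adjusted p = 0.0346). For MARK4 the scrambled libraries were themselves 1.41-fold above DMSO (617.1 ± 23.5 in DMSO, limma adjusted p = 0.0162). Against DMSO, MARK4 was not called in siDHX9 libraries (log2 0.06 ± 0.13 SE, adjusted p = 0.776). With YK-4-279, MARK4 and MARK2, kinases of tau and other microtubule proteins, rose 1.69-fold and 1.44-fold (adjusted p = 0.00193 and 0.00878).

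**Figure D4:**
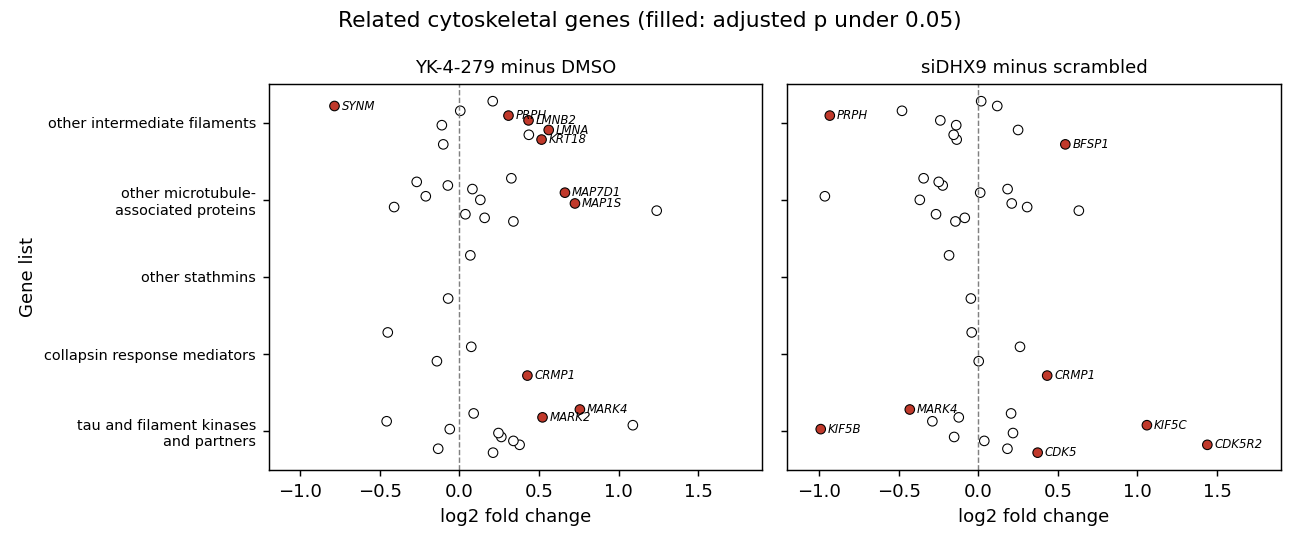
Log2 fold change of each measured gene in 5 lists of related cytoskeletal genes, for YK-4-279 minus DMSO and siDHX9 minus scrambled; filled points have an adjusted p under 0.05 and are named. PRPH lies right of 0 with YK-4-279 and left of 0 in siDHX9 libraries.

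The genes whose levels over the 12 libraries were most like those of NEFM, among 11393 compared, were NABP2 (Pearson r = 0.971), TPT1-AS1 (0.960), GPRC5B (0.959), TINCR (0.957) and GPNMB (0.956). All 5 were highest in siDHX9, with GPNMB at 382.7 ± 33.4 in siDHX9 and 141.4 ± 19.4 in scrambled libraries. Those most like MAP1B were PEG10 (0.983), MIS18A (0.968), EIF2S2 (0.963), KIAA1841 (0.957) and PPP1R9A (0.955), all highest in scrambled libraries. PPP1R9A, which encodes the neuronal actin-binding protein neurabin, stood at 335.9 ± 47.6 in siDHX9 and 717 ± 21.2 in scrambled libraries. These r values describe 12 libraries that share 4 group means.

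Some entries overlap others in the table, and the sources used here do not say whether counting used the strand. STMN3 overlaps the entry of RTEL1 and TNFRSF6B, which held 12.8% of its mean level and stood at 1724 ± 185 in siDHX9 and 1754 ± 48.2 in scrambled libraries. MAPT overlaps MAPT-IT1, MAPT-AS1, STH and 2 unnamed entries with 0.00895 to 2.7% of its level, of which MAPT-AS1 lay at 57.1 ± 9.18 in siDHX9 and 30.7 ± 9.36 in scrambled libraries. NEFH overlaps an unnamed entry with 5% of its level, NEFL an unnamed entry with 0.534%, and INA, NES, MAP1A and MAP2 overlap no other entry above 0. NEFM overlaps an unnamed entry with 32.1% of its level.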

How the data were processed

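RNA sequencing of 12 TC-71 libraries was deposited as 1 table of normalised signal per entry and library, which per the file headers carries FASTDB identifiers, hg19 coordinates and gene symbols. The submitters' processing notes list STAR 2.4.0, DESeq, SAMtools, Picard and FastQC and the build hg19, with no order or settings. The deposited signal is a read count divided by a size factor per library; dividing each column by the value of 1 read gave whole reads within 0.1 for 100% of values up to 20 reads, though in 4 libraries 1 read is worth within 1% of 1, so that the tolerance tests little there, and the recovered reads served for depth, edgeR and DESeq2. Fitted intervals and p values rest on the spread between libraries. Every replicate pair differed by more than counting error (lowest chi-square per gene 6.96).

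Named entries with a mean of at least 10 (14225) were fitted as log2(value + 1) by limma 3.58.1 under R 4.3.3, using a mean-variance trend and all 12 libraries, with each group given its own mean; fold changes on this scale understate low genes. P values are two-sided with Benjamini-Hochberg adjustment over all 14225 entries, called under 0.05. Alternatives were added values of 0.5 and 10, no minimum, a minimum mean of 50, TMM factors, the groups of a comparison alone, DESeq2 1.42.0, edgeR 4.0.16, a block for the replicate number, and each library left out. A fit without both scrambled libraries 1 and 2 was chosen after seeing the data. All members are named; of the related lists, up to 4 called genes per list and comparison, and the 5 genes most like NEFM and MAP1B. The members and lists were chosen with earlier results of these data known. In the sample titles, same-numbered libraries shared only a number, and the reported fit did not pair them. Promoters came from RefSeq (GRCh38.p14) and transcript lengths from GENCODE v29, with no coordinates converted. Some genes of the related lists are not reported here, and the list counts leave them out.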

Additional observations from a re-analysis of the deposited data

Results flagged for a closer look

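A pair of unnamed entries that overlap members, and enter no comparison above, were higher in every siDHX9 than in every scrambled library. They were picked for this, and the other unnamed entries over members had overlapping groups. Of the 14225 named entries tested, 14.9% lay above scrambled without overlap, and no such share was computed over unnamed entries. The entry GSHG0029473 (hg19 chr8:24769686-24772230), which spans the start of NEFM, had a mean of 578.9 ± 17.1 in siDHX9 libraries and 356 ± 84.4 in scrambled ones (normalised counts, SD, n = 3), beside 319.4 ± 22.1 with YK-4-279 and 295.8 ± 10.7 in DMSO. Its level was 32.1% of that of NEFM. The entry GSHG0098740 (chr5:71403242-71505416), which spans most of MAP1B, held 57.17 ± 3.79 in siDHX9 and 40.93 ± 5.25 in scrambled libraries, while MAP1B itself was lower in siDHX9, and 42.79 ± 14.6 with YK-4-279 and 62.1 ± 16.7 in DMSO. No test was run on these entries.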

How the results depend on the processing

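Of 945 values of single genes under an alternative 851 kept their direction and their side of the threshold, 66 lost the call, 18 gained it and 10 changed sign, all 10 in genes that were not called. The number of the 9 genes called was 8 for YK-4-279 minus DMSO and 4 for siDHX9 minus scrambled in fits of just the 6 libraries concerned, and 4 for siDHX9 minus scrambled without both scrambled libraries 1 and 2. With 1 library left out it ranged from 1 to 5 for YK-4-279 minus DMSO, from 4 to 7 for siDHX9 minus scrambled, from 3 to 5 for the difference of the effects, from 3 to 7 for siDHX9 minus DMSO and from 4 to 6 for scrambled minus DMSO. Over all genes, the calls were 1965 with YK-4-279 (4270 on its own 6 libraries, 858 to 2795 without 1 library), 2378 with siDHX9 against scrambled (492 on 6 libraries, 469 without both scrambled libraries 1 and 2, 1244 to 4255 without 1 library, the highest without siDHX9 replicate 2), 1379 for the difference (2081 in DESeq2, 762 to 1883 without 1 library), 2223 with siDHX9 against DMSO (1231 to 3300) and 2692 with scrambled against DMSO (1431 to 3485). Changes of sign were those of MAP1A in siDHX9 minus scrambled (−0.347 to 0.388 with 1 library left out), at 0.388 without scrambled replicate 2, 0.0428 without siDHX9 replicate 1 and 0.367 without both scrambled libraries 1 and 2, of MAPT there (−0.125 to 0.142), at 0.0723 without scrambled replicate 2, 0.142 without siDHX9 replicate 2 and 0.125 without both scrambled libraries, and of the NEFL difference (−0.0593 to 0.00919), at 0.00919 without DMSO replicate 3, 7.31e-06 without YK-4-279 replicate 2, 0.000575 without scrambled replicate 2 and 0.00481 without siDHX9 replicate 1. The cause was not tested. With the replicate number as a block, the calls over all genes were 1601 with YK-4-279 and 2118 with siDHX9 against scrambled; NEFH in the difference (adjusted p = 0.0514), INA in siDHX9 minus DMSO (0.0537) and MAPT in scrambled minus DMSO (0.0688) lost their call under the block and no other gene of the 9 did. Same-numbered libraries correlated in their deviations at −0.0367 to 0.329 between YK-4-279 and DMSO and at 0.0948 to 0.105 between siDHX9 and scrambled. Different-numbered libraries were not compared in this way, so these values cannot show whether the numbers pair the libraries. Fitting only the libraries concerned equals the reported fit for the difference and was not run there.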
